A study of Mus musculus with 9 samples.

Results

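The genes of the cytosolic ribosomal proteins were followed across 9 RNA-seq libraries of tissue labelled as mouse hippocampus. Members were all table rows whose symbol is Rpl, Rps or Rplp followed by a number and at most an ending of a, x, l or al, a rule on names that used no measured value. It found 83 of 54513 rows, of which 49 belong to the large subunit, 3 to its stalk and 31 to the small subunit. The rule leaves out some genes that also encode ribosomal proteins or close relatives of them, such as Rpsa, Rps3a1, Fau, Rpl22l1, Rpl7l1 and Rps27rt. Of the members, 80 had enough counts to be tested. The reference annotation lists 80 members as protein coding and 3 (Rps4l, Rpl6l and Rpl32l) as pseudogenes.

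All mice ate a high-fat diet for 12 weeks, with 3 mice in each of 3 groups. The first group received this diet alone (HFD), the next the same diet with tryptophan added at 0.5% by weight (Trp), and the last the diet and a daily oral gavage of IPA at 100 mg/kg body weight in saline (IPA). No group on a standard diet is among the samples, and the labels give no strain, sex or age and no saline gavage for the HFD group. Whole tissue was sequenced after capture of polyadenylated RNA, so fewer cells of a type and less RNA per cell cannot be told apart.

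Each ribosome carries 1 copy of almost every one of these proteins, and cells make them in matched amounts. Ribosomal protein mRNAs are therefore among the most abundant and most evenly expressed of any tissue, and in neurons they are also found in axons and dendrites. Their mRNAs typically begin with a C followed by an unbroken run of pyrimidines, the terminal oligopyrimidine or TOP motif, through which the kinase mTOR sets how strongly they are translated when amino acids are plentiful or scarce. Translation is not seen in mRNA counts. Small-subunit proteins carry the decoding centre and large-subunit proteins surround the centre that forms peptide bonds, while the stalk (Rplp0, Rplp1 and Rplp2) recruits the elongation factors.

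Libraries held 40621084 to 50938746 counts, and 3 counts, the limit that a count of 0 allows, correspond to 0.0584 to 0.0751 CPM (counts scaled to a common library size), for counting error only. Summed levels of another region's markers were higher than those of the labelled one. The 10 dentate granule cell genes summed to 326 to 408 CPM and 9 genes of the CA fields to 342 to 454 CPM. The 12 striatal projection neuron genes summed to 1015 to 4092 CPM. These sums run over different genes, so they do not measure how much of each region was present. HFD 3 stood apart, with the lowest striatal sum (1015 CPM) and the highest sums of thalamus and habenula genes (472 CPM), red blood cell genes (2607 CPM) and oligodendrocyte genes (16140 CPM). The choroid plexus sum ran from 42 CPM in Trp 3 to 1470 CPM in Trp 1. Results are therefore also given without HFD 3.

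A minority of the members had a pyrimidine run, part of the TOP motif, at an annotated start. RefSeq start windows on GRCm38.p6 were held for 61 members. The windows below run from 15 bases before to 15 bases from the annotated start, 5′ to 3′ on the gene's strand, and capitals mark an unbroken run of at least 6 C or T that holds the first base or the one before it. The first set has such a run at the start shown, and the first base need not be a C. Rps24 and Rps21 each have another annotated start without a run. The set is shown because it includes an S6 kinase substrate, the most abundant member, a stalk protein and several of the shortest members.
Rps6 (chr4:86857353-86857382, minus strand): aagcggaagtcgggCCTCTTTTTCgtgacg
Rps24 (chr14:24490663-24490692, plus strand): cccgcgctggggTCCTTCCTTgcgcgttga
Rpl27a (chr7:109519180-109519209, plus strand): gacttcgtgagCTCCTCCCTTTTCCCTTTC
Rplp2 (chr7:141447636-141447665, plus strand): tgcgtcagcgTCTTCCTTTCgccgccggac
Rps21 (chr2:180257364-180257393, plus strand): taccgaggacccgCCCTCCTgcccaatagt
Rps27 (chr3:90213634-90213663, minus strand): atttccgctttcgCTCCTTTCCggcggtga
Rpl38 (chr11:114668565-114668594, plus strand): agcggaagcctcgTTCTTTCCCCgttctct
The next set has no run at the annotated start and is shown because its members are among those with the largest differences between groups below.
Rps28 (chr17:33824548-33824577, minus strand): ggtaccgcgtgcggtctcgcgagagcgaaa
Rplp0 (chr5:115559452-115559481, plus strand): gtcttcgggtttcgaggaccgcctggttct
Rpl39 (chrX:37085208-37085237, minus strand): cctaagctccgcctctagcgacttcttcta

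A run touched at least 1 annotated start of 22 of the 61 members (36.1%), compared with 12.5% of the 27025 genes in the same RefSeq table and 13.3% of its 13049 genes that were tested here. A C stood at the start itself in 20 members (32.8%), against 18.9% of all genes. Annotated starts can lie some bases from the true one, so a window without a run says only that these letters are not at that position. In the longer promoter windows of the table, searched on both strands, CCGGAAG (the core bound by ETS factors) was found in 24 members (39.3%), 9.93% of all genes and 16.9% of tested genes. The TATAAA element was found in 7 members (11.5%), 15.7% of all genes and 9.56% of tested genes. CACGTG (the E-box bound by Myc) was found in 6 members (9.84%), 8.09% of all genes and 10.95% of tested genes, so for both the side depends on the genes compared. AAGATGGCG (a YY1 motif) was found in 3 members (4.92%), 1.64% of all genes and 2.90% of tested genes. No searched motif contains another. The 20 tested members with a run had a median of 208 FPKM, the authors' count per length and depth, a median log2 difference of -0.07 between Trp and HFD and one of -0.09 between IPA and HFD. For the 38 tested members without a run these medians were 198 FPKM, -0.08 and -0.11.

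Ribosomal protein mRNAs were abundant in every library. Together the members took 2.03%, 1.74% and 2.04% of all counts in libraries HFD 1, 2 and 3. They took 1.89%, 1.82% and 1.66% in the IPA libraries and 1.83%, 1.85% and 2.00% in Trp 1 to 3. The share averaged 1.94% ± 0.167 (SD, n = 3) for HFD, 1.79% ± 0.118 for IPA and 1.89% ± 0.0961 for Trp, and the groups overlap. Measured as summed FPKM, which allows for the shortness of these mRNAs, their share was 4.21% to 5.21%. The large subunit with the stalk held 1.05% to 1.28% of counts and the small subunit 0.605% to 0.757%.

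Levels per length spanned a wide range for proteins that are needed in equal amounts. Over the tested members the median was 215 FPKM, with 203 for the large subunit and 239 for the small one. Of the 80 tested members, 79 exceeded 10 FPKM and 68 exceeded 100 FPKM, and the 10 highest held 31.4% of all member FPKM. The highest 5 by mean FPKM over the 9 libraries were Rps24 (804), Rps15 (795), the stalk protein Rplp1 (727), Rpl26 (718), which also binds p53 mRNA, and Rps14 (713). Rps24 ranged from 691 FPKM in IPA 3 to 951 in HFD 3 and Rps15 from 660 in IPA 3 to 955 in Trp 3, so the order of these 5 does not hold in every library. Rpl13a, a protein also known outside the ribosome for silencing inflammatory mRNAs, followed at 699 FPKM and Rpl41, the smallest ribosomal protein, at 671 FPKM.

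The lowest tested members were Rpl3l, Rpl6l, Rps4l, Rps27l and Rps20, at 0.22, 13.2, 13.7, 18.0 and 34.4 FPKM. Rpl3l is the muscle form of Rpl3, and 2 of the others are annotated as pseudogenes. The low FPKM of Rps20, and of Rps15a at 35.2 FPKM, rests on the length used to scale them. The ratio of CPM to FPKM gives a length of 3831 nt for Rps20 and 5433 nt for Rps15a, whereas their longest annotated coding sequences are 357 and 390 nt. On the CPM scale, which is not corrected for length, Rps15a averaged 191 and Rps20 132.

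**Figure D1:**
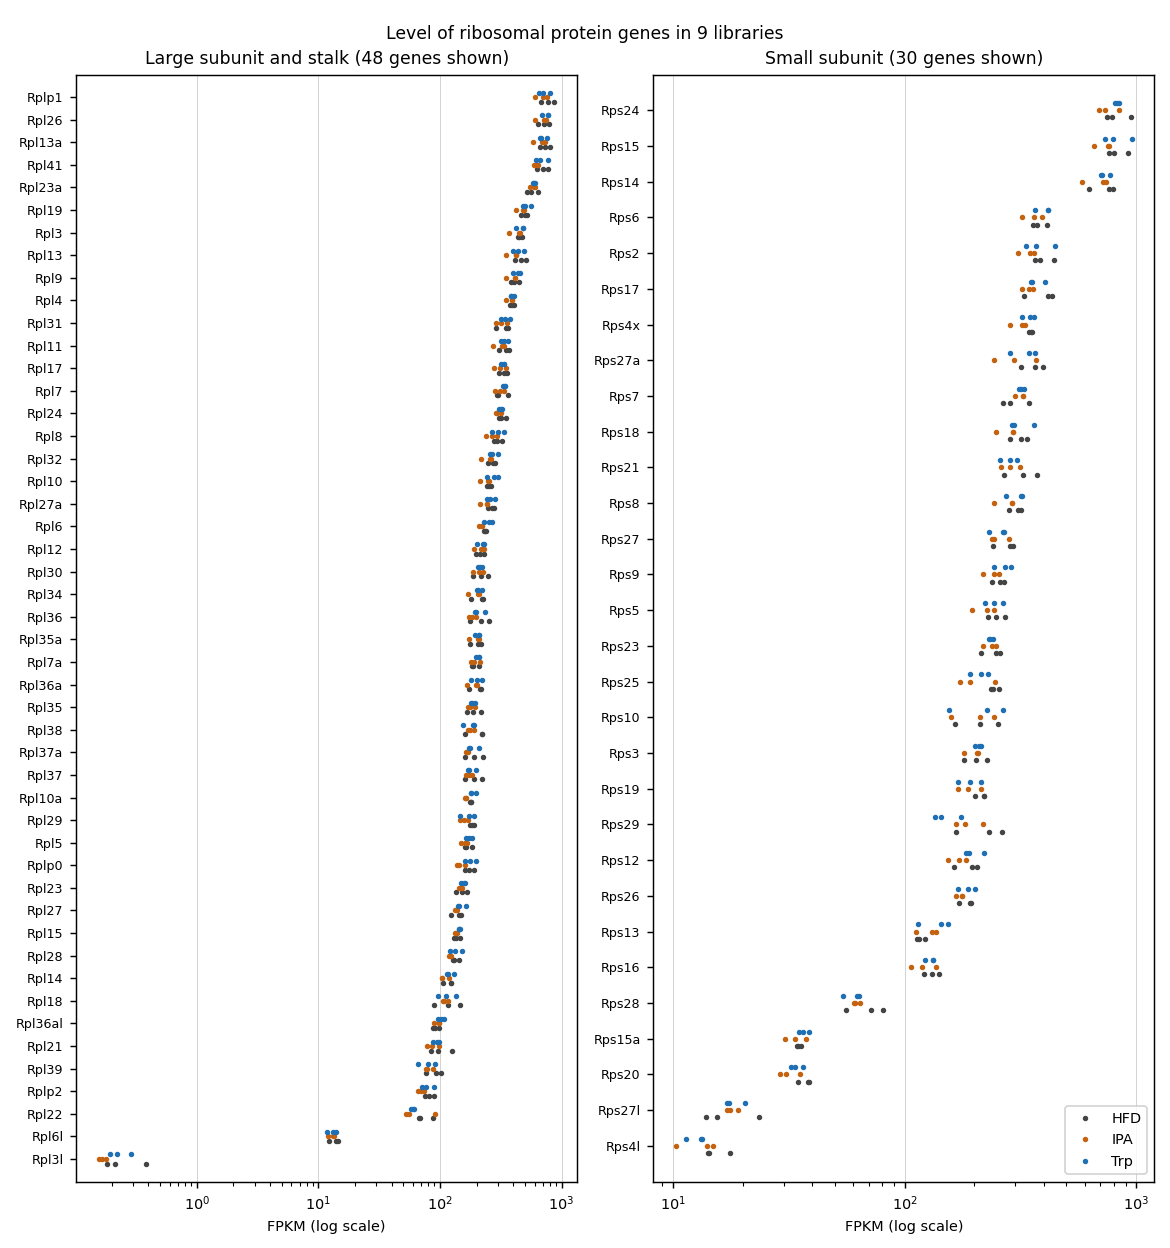
Level of tested ribosomal protein genes in FPKM (log axis), 1 point per library, coloured by group (HFD grey, IPA orange, Trp blue), for the large subunit with the stalk (48 genes shown) and the small subunit (30 genes shown). Points of a gene lie close together compared with the distance between genes, and Rpl3l lies far below the others at 0.22 FPKM.

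Stoichiometry of the 3 stalk genes was uneven on the FPKM scale. The stalk is built from 1 Rplp0 and a pair each of Rplp1 and Rplp2, while the mean levels were 167, 727 and 76.8 FPKM. These levels rest on the lengths used to scale them. Rplp2 was scaled by 1018 nt against a coding length of 345 nt, and Rplp1 by 552 nt against 342 nt. On the CPM scale, which is not corrected for length, the means of Rplp0, Rplp1 and Rplp2 were 249, 402 and 78.2. Rpl5 and Rpl11, which form the 5S particle that can bind and block Mdm2, stood at 387 ± 35.2 and 307 ± 32.7 CPM in HFD (SD, n = 3). Rps6, the classic substrate of S6 kinase, averaged 397 ± 35.4 CPM on HFD alone, 371 ± 30.9 with IPA and 388 ± 9.31 with Trp.

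Members moved together from library to library, and libraries of the same group lay on both sides of the members' mean. Relative to each gene's own mean log2 CPM, the median member stood at 0.11, -0.09 and 0.16 in HFD 1 to 3. The same medians were 0.07, -0.05 and -0.16 for the IPA libraries and -0.04, -0.05 and 0.05 for the Trp libraries. HFD 1 and HFD 3 were the highest of all and HFD 2 was next to the lowest, IPA 3 was the lowest, and the Trp libraries lay between. The first principal component of the members' log2 CPM held 62.4% of their variance, the next 16.7% and the third 9.96%.

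Single genes repeated this order. HFD 1 and HFD 3 were both above HFD 2 in 73 of 80 tested members, IPA 1 was above IPA 3 in 75, and Trp 3 was above both other Trp libraries in 55. The highest library was HFD 3 for 46 members, HFD 1 for 29 and Trp 3 for 5. Over all tested genes those libraries were highest for 17.9%, 14.4% and 13.4%. The lowest library was IPA 3 for 47 members and HFD 2 for 17, against 12.3% and 9.35% of all genes.

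The spread of a single member within its group was small. The median within-group SD was 0.13 on the log2 CPM scale for the 80 members and 0.12 for 2560 other genes with similar levels. Between the highest and the lowest of 9 libraries the median member differed 1.32-fold, and 70 of 80 differed less than 1.5-fold. Rpl15 was the most even at 1.15-fold. Rpl3l (2.43-fold, on 10 to 28 counts per library), Rps29 (2.08-fold) and Rps27l (1.73-fold), a relative of Rps27 induced by p53, were the least even. Some members were noisier in FPKM than in counts: the within-group SD (log2) of Rps10 was 0.34 in FPKM and 0.13 in CPM, and that of Rpl22 was 0.29 and 0.14.

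**Figure D2:**
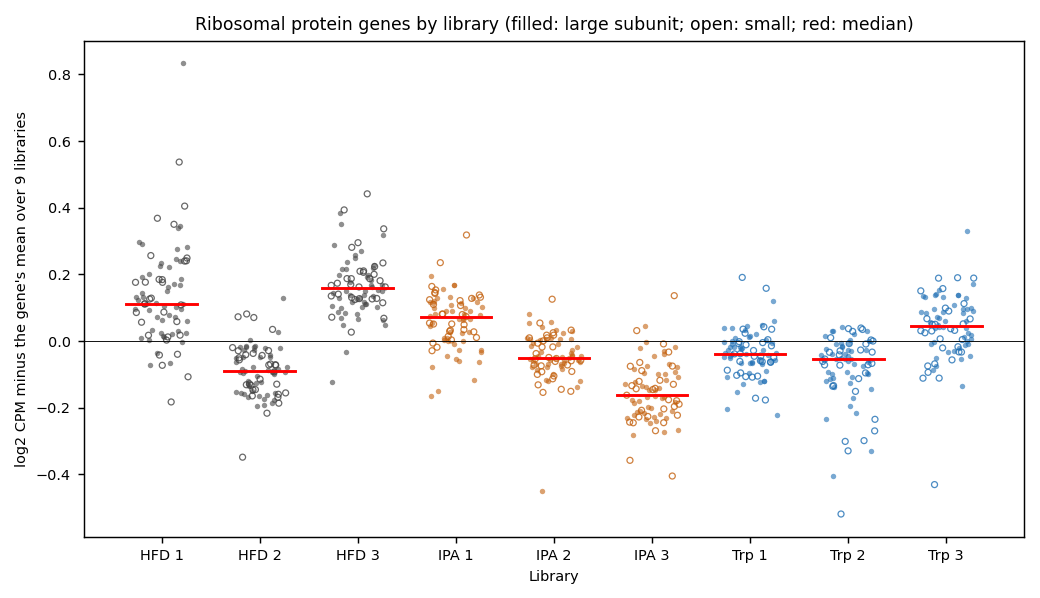
Log2 CPM of each of the 80 tested members minus its own mean over the 9 libraries, 1 point per gene (filled for the large subunit and stalk, open for the small subunit), with the median in red. The medians of HFD 1 and HFD 3 (0.11 and 0.16) are the highest and those of HFD 2 and IPA 3 (-0.09 and -0.16) the lowest, so libraries of 1 group lie on both sides of 0.

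Tryptophan was compared with the diet alone. None of the 80 tested members passed edgeR's quasi-likelihood test at a Benjamini-Hochberg adjusted p under 0.05, where 0.342% of all 18690 genes did. At an unadjusted p under 0.05 there were 2 members, both lower in Trp (Rps29 and Rps4l), beside 11.3% of all genes in either direction, 5.54% lower and 5.76% higher. DESeq2's Wald test called 1 of 80 members, Rps29, and 1.65% of all genes, so that count is no higher than the background of the same test. The median log2 difference of the members was -0.08, beside -0.00 over all genes, and 71 of 80 were below 0, beside 50.5% of all genes. On the FPKM scale, tested with limma, 41 of 79 members were below 0 (median -0.00), beside a median of 0.07 over all genes on that scale. The member median minus that of all genes was -0.08 on either scale.

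Rps29, a small zinc-binding protein of the small subunit's head, had the largest difference among the well-expressed members. Its CPM were 115, 72.2 and 104 in HFD 1 to 3 and 75.8, 55.1 and 58.6 in Trp 1 to 3. The groups overlap, since Trp 1 exceeded HFD 2, and the other Trp libraries were lower than all of HFD. The means were 96.8 ± 22.0 and 63.2 ± 11.1 CPM (SD, n = 3), a log2 difference of -0.62 with a standard error of 0.19 and an edgeR adjusted p of 0.263. DESeq2 gave an adjusted p of 0.0381 for the same difference. Leaving out 1 library at a time moved the difference from -0.79 without HFD 2 to -0.48 without HFD 1. The edgeR adjusted p of Rps29 ran from 0.0911 without HFD 2 to 0.726 without Trp 2.

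After Rps29 and the pseudogene row Rps4l, the next smallest p values belonged to 3 small-subunit members. Rps28, which lies near the mRNA exit, had 35.2, 23.9 and 32.1 CPM in HFD 1 to 3 and 27.3, 22.1 and 25.2 in Trp 1 to 3. Again HFD 2 lay inside the range of Trp while HFD 1 and HFD 3 lay above it. The log2 difference was -0.29 (SE 0.13, edgeR adjusted p = 0.451). Rps21 had 164, 118 and 147 CPM in HFD and 124, 107 and 126 in Trp, a log2 difference of -0.27 (edgeR adjusted p = 0.455). Rps20 had 148, 134 and 151 CPM in HFD and 122, 123 and 132 in Trp. Here every HFD library was above every Trp library, at a log2 difference of -0.20 (edgeR adjusted p = 0.466).

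Groups did not overlap for 5 members, all lower in Trp (Rps4x, Rpl24, Rpl29, Rps20 and Rps4l), which is 6.25% of members beside 7.43% of all genes, and none was higher without overlap, beside 8.06%. The pseudogene row Rps4l had 17.3, 13.7 and 14.3 CPM in HFD and 12.7, 10.4 and 12.1 in Trp, with a log2 difference of -0.36. Its parent Rps4x, the X-linked form, differed by -0.11, with 375, 380 and 396 CPM in HFD and 346, 354 and 369 in Trp. Members on the other side were few and close to 0, such as Rpl27, Rps7, Rpl7a and Rps13, with log2 differences of 0.02 to 0.03. For 76 of 80 members the 95% interval of the difference lay within 1.5-fold in both directions.

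The size of the shared difference depended on which HFD library was left out. Without HFD 3 the median member difference between Trp and HFD was -0.04, and 52 of 80 members were below 0. Without HFD 2 it was -0.15, with 79 below 0 and 17 of 80 at an edgeR unadjusted p under 0.05, beside 10.5% of all genes in the same fit, and none passed after adjustment in either fit. Beside this, HFD 3 had the lowest striatal and highest oligodendrocyte and red blood cell sums. Of 12 microglia markers, 5 passed edgeR's adjusted threshold as higher in Trp than in HFD, beside 0.214% of all genes. The summed level of these markers was 278 to 304 CPM in HFD and 420 to 541 in Trp. The part of these marker differences in the ribosomal protein values was not tested.

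IPA was then compared with the same HFD libraries. None of the 80 members passed edgeR's adjusted threshold, where 0.00535% of all genes did, and DESeq2 called none, beside 0.915% of all genes. At an unadjusted p under 0.05 edgeR gave 4 members, all lower in IPA (among them Rplp0, Rpl29 and Rplp2). Over all genes the shares were 10.4% in either direction, 5.46% lower and 4.95% higher, so the members' share was not above the background. DESeq2 gave 2 at that level, beside 10.7% of all genes. The 4 belong to the large subunit with its stalk, but the small subunit was no closer to 0. The median log2 difference was -0.11 for the large subunit with its stalk (48 of 49 below 0). For the small subunit it was -0.13 (29 of 31 below 0). The median member difference was -0.11 on the log2 scale, beside -0.01 for all genes, and 77 of 80 members were below 0, beside 51.1% of all genes. On the FPKM scale 73 of 79 were below 0.

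Rplp0 is the base of the stalk and anchors it to the large subunit. Its CPM were 290, 240 and 267 in HFD 1 to 3 and 224, 241 and 213 in IPA 1 to 3. IPA 2 just exceeded HFD 2, and the other IPA libraries were lower than all of HFD. The means were 266 ± 24.9 and 226 ± 14.4 CPM (SD, n = 3), a log2 difference of -0.23 (SE 0.10, edgeR adjusted p = 0.45). The stalk protein Rplp2 had 91.5, 76.4 and 85.1 CPM in HFD and 74.7, 75.3 and 68.7 in IPA, so that all IPA libraries lay below HFD, at a log2 difference of -0.21 (edgeR adjusted p = 0.478). Rplp1, its partner, differed by -0.17, with groups that overlap.

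Outside the stalk, Rpl29, which is rich in lysine and binds heparin, had 155, 149 and 146 CPM in HFD and 143, 126 and 120 in IPA, with no overlap and a difference of -0.21 (edgeR adjusted p = 0.477). Rps20 differed by -0.20 in IPA, the same size as in Trp, against the same HFD libraries. In all, 7 members were lower in IPA with no overlap (among them Rplp2, Rpl29, Rps2, Rps4x, Rpl28 and Rpl3l). That is 8.75% of members beside 8.01% of all genes, and none was higher without overlap, beside 7.19%.

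Rps7, Rpl23a and Rps27l were the 3 members above 0 in IPA. Rps7, which like Rpl5 and Rpl11 can bind Mdm2, had 298, 276 and 364 CPM in HFD and 350, 333 and 319 in IPA. The IPA libraries lay inside the range of HFD, and the log2 difference was 0.10 (SE 0.10, edgeR adjusted p = 0.777). The 95% interval lay within 1.5-fold for 77 of 80 members. Without HFD 3 the median member difference between IPA and HFD was -0.05 with 63 of 80 below 0, and without HFD 2 it was -0.18 with 79 below 0 and 22 of 80 at an edgeR unadjusted p under 0.05, beside 11.3% of all genes in that fit. It was -0.06 with 64 below 0 without IPA 3, and -0.17 with 76 below 0 without IPA 1. At that p level there were 0 and 10 of 80 members, beside 5.87% and 9.93% of all genes in those fits. Marker sums of other cells follow, and no gene of these lists passed edgeR's adjusted threshold, beside 0.00535% of all genes. The striatal sum was 3080 to 4092 CPM in IPA and 1015 to 3208 CPM in HFD. These ranges overlap, and 3 of 12 genes were higher in IPA without overlap, beside 7.19% of all genes. Red blood cell genes summed to 632 to 757 CPM in IPA and 988 to 2607 in HFD, with 6 of 8 lower in IPA without overlap. Endothelial genes summed to 173 to 185 and 209 to 230 CPM, with 7 of 10 lower without overlap. Over all genes 8.01% were lower in IPA without overlap. The part of these marker differences in the ribosomal protein values was not tested.

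**Figure D3:**
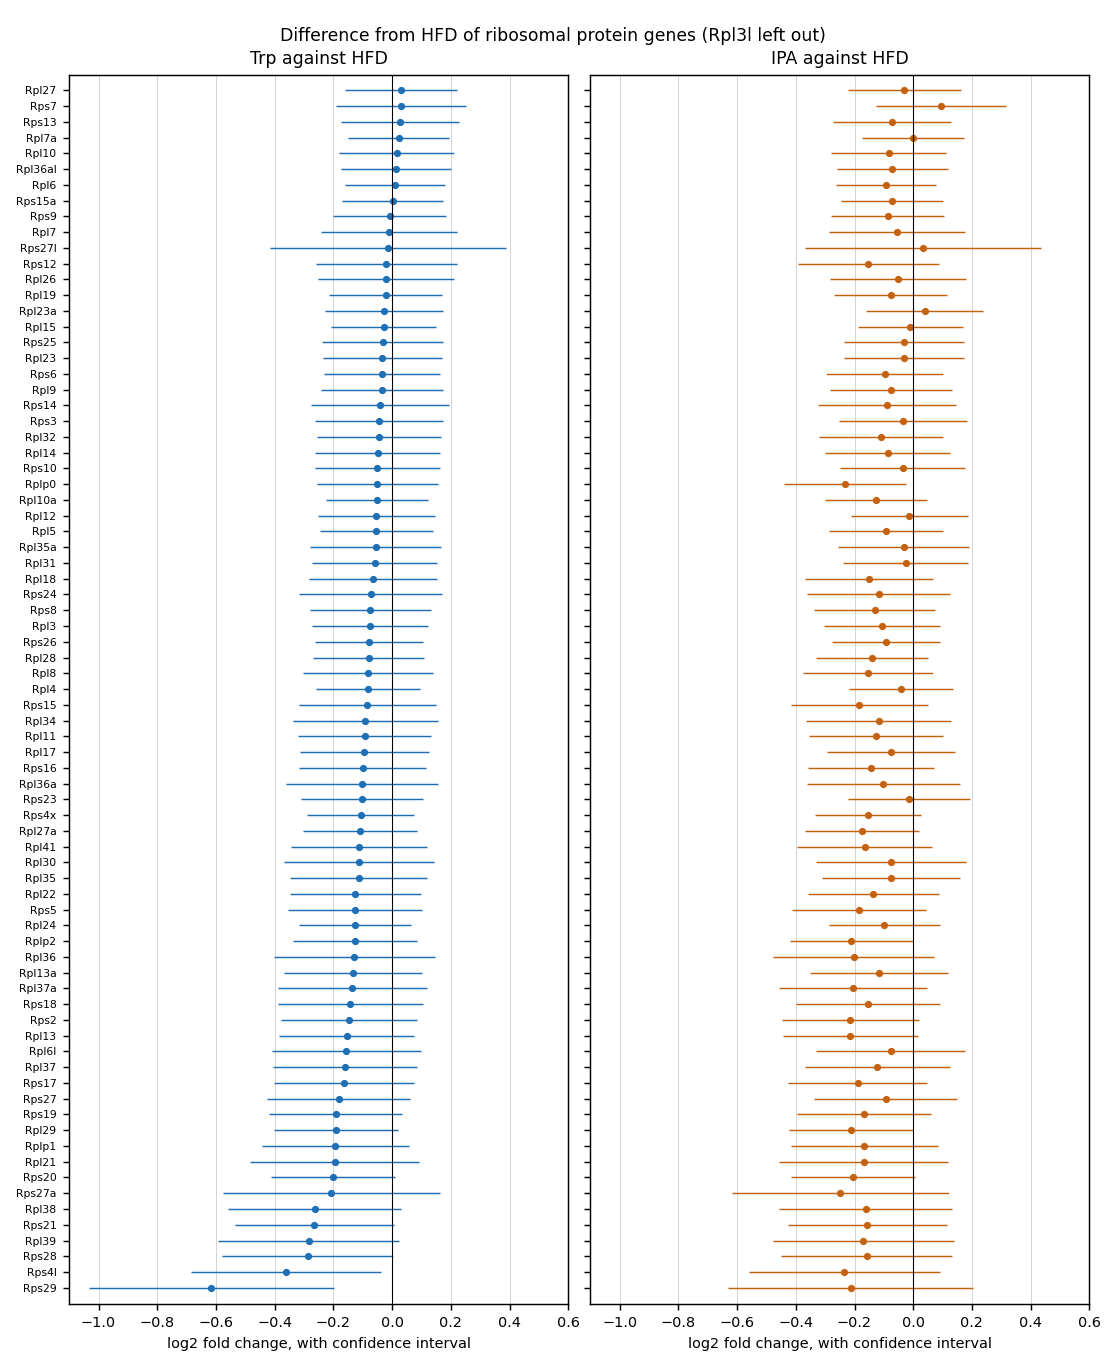
Log2 fold change of 77 tested members against HFD with its 95% interval from edgeR, sorted by the Trp value, for Trp (blue) and IPA (orange). Most points lie below 0 (71 of 80 members in Trp and 77 of 80 in IPA), and most intervals cross 0. On the FPKM scale 41 of 79 members were below 0 in Trp, where the median over all genes was 0.07. The member median minus that of all genes was -0.08 on either scale. Both panels use the same HFD libraries.

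The treatments were last compared with each other, which leaves out the HFD libraries apart from the shared estimate of spread. No member passed edgeR's adjusted threshold, and 0% of all genes did. At an unadjusted p under 0.05 edgeR gave 0 members, beside 4.49% of all genes (2.43% higher and 2.07% lower), and DESeq2 called 0 after adjustment (0.0803% of all genes) with 1 at an unadjusted p under 0.05 (4.49%). The median member difference of Trp against IPA was 0.03, beside 0.01 over all genes, and 31 of 80 were below 0, beside 48.1% of all genes. On the FPKM scale 8 of 79 were below 0 (median 0.11) and all genes had a median of 0.08. The edgeR median of 0.03 turned to -0.03 without IPA 3 and to -0.01 without Trp 3.

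Rplp0 had the smallest p among members higher in Trp than in IPA, with 241, 249 and 279 CPM in Trp 1 to 3 beside the IPA values above. Only IPA 2 reached the range of Trp, and the log2 difference was 0.18 (SE 0.10, edgeR adjusted p = 0.987). Rpl6 had 0.10 and Rps12 0.13. Rpl36al was the 1 member without overlap, with 60.5, 61.0 and 63.2 CPM in Trp and 55.5, 60.3 and 58.5 in IPA, which is 1.25% of members beside 5.61% of all genes higher without overlap. No member was lower without overlap, beside 5.55% of all genes. On the lower side Rps29 had 98.4, 71.4 and 80.7 CPM in IPA, with Trp 1 inside that range. Its difference was -0.40 (SE 0.19, edgeR adjusted p = 0.987), and Rps28, Rps23, Rps21 and Rps4l followed at -0.13 to -0.09.

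**Figure D4:**
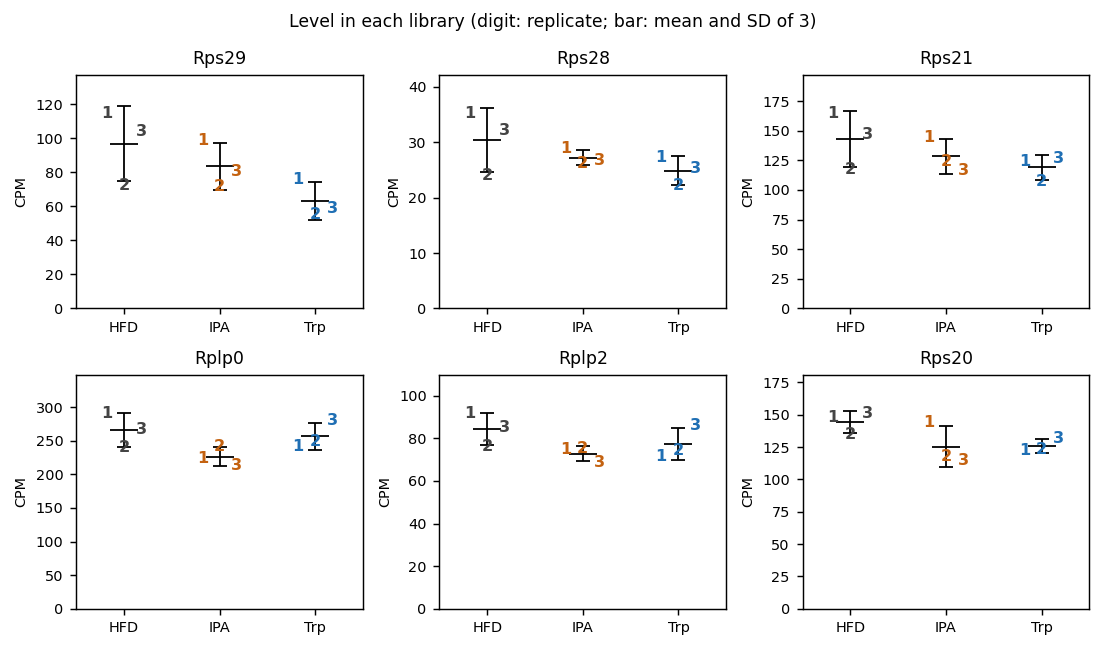
CPM of 6 named members in each library (the digit is the replicate number; bars are the mean and SD of 3) by group. For Rps29, Rps28 and Rps21 replicates 1 and 3 of HFD lie above all Trp libraries and replicate 2 does not, while for Rplp0 and Rplp2 the IPA group has the lowest mean.

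The shortest members had the largest differences between Trp and HFD. Coding length here is that of the longest annotated coding sequence. Of the 8 members with the lowest log2 difference in Trp, 5 had a coding length under 300 nt (Rps29, Rps28, Rpl39, Rps21 and Rpl38). In Trp against HFD the 9 tested members under 300 nt had a median log2 difference of -0.26 with all 9 below 0, and the 69 longer ones had a median of -0.07 with 60 below 0. In IPA against HFD the medians were -0.16 with all 9 below 0 and -0.10 with 66 below 0. Across 77 protein-coding members without Rpl3l, log2 coding length and the Trp difference had a Pearson r of 0.49 and a Spearman rho of 0.36, as a description over genes that share the same libraries. For the IPA difference over the same genes they were 0.15 and 0.10.

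Genes outside the family with a short coding sequence lay on the same side with smaller values. The 264 other genes with a coding length under 300 nt had medians of -0.05 in Trp and -0.07 in IPA, and the 56 of these at the members' level had medians of -0.09 and -0.07. For the 2520 longer other genes at that level the medians were -0.03 and 0.00. Short members were also more variable within groups: log2 coding length and the within-group SD of log2 CPM had a Pearson r of -0.57. By library, the median deviation of the 9 short members was 0.30, -0.13 and 0.22 in HFD, then 0.12, -0.08 and -0.09 with IPA, and -0.00, -0.27 and -0.05 with Trp. HFD 1 and HFD 3 were the highest and Trp 2 the lowest.

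Individual short members had this shape. Rpl38, known for a role in translating Hox mRNAs in the embryo, had 92.4, 66.8 and 95.0 CPM in HFD and 77.4, 60.7 and 73.4 in Trp, a log2 difference of -0.26. Rpl39, which lines the exit tunnel, had 64.2, 52.6 and 71.7 CPM in HFD and 61.1, 42.5 and 51.1 in Trp, a log2 difference of -0.28. In both, HFD 1 and HFD 3 were above all Trp libraries and HFD 2 was not. Rpl41 did not share the size of this difference, at -0.11 in Trp (500, 400 and 460 CPM in HFD; 423, 370 and 465 in Trp).

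**Figure D5:**
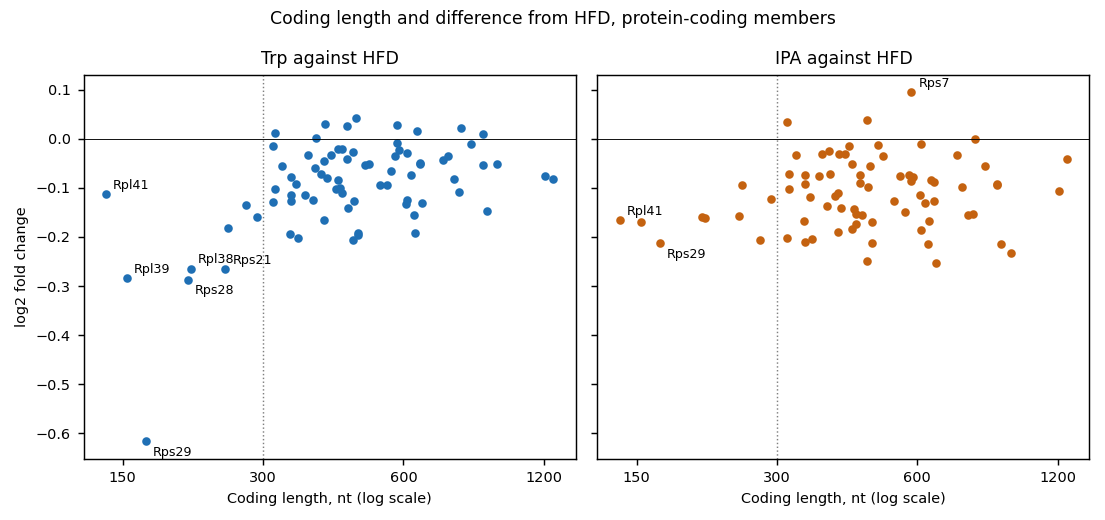
Log2 fold change against HFD by longest annotated coding length in nt (log axis) for 77 protein-coding members, in Trp and in IPA, with the dotted line at 300 nt. In Trp the 9 members left of the line lie at a median of -0.26 and Rps29 is the lowest, and in IPA they lie at -0.16.

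In most pairs of related genes 1 copy was far more abundant. Rpl3 stood at 446 FPKM and Rpl3l at 0.22 FPKM. Rps27 stood at 261 FPKM and Rps27l at 18.0, Rps4x at 335 and Rps4l at 13.7, and Rpl7 at 322 and Rpl7l1 at 17.8. Rpl36a (198 FPKM) and Rpl36al (96.8 FPKM) were closer. Rpl22 stood at 66.7 FPKM and Rpl22l1, the copy that Rpl22 represses in other tissues, at 120. That order depends on length scaling, since Rpl22 was scaled by 1899 nt against a coding length of 384 nt and its mean CPM was 127, above the 69.9 to 76.0 CPM of the group means of Rpl22l1. Rpl10l, a testis copy of Rpl10, had 0 counts in all 9 libraries, Rpl39l had 0 to 14 counts and Rpl32l had 1 to 6, and these 3 were not tested.

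Near-identical processed copies make these counts uncertain, since the way the authors assigned shared reads is not given in the sources used here. Pseudogenes were counted as rows named Rpl, Rps or Rplp with a number and a -ps ending. This leaves out pseudogenes under other symbols, such as the members Rps4l and Rpl6l. The 310 rows so named took 4.71% to 5.07% of the counts of members and these pseudogenes together in each library. Of these, 96 were tested and none passed with edgeR. At an unadjusted p under 0.05 there were 2 in Trp and 1 in IPA against HFD, beside 11.3% and 10.4% of all genes. The 96 rows had median log2 differences of -0.15 in Trp and -0.07 in IPA against HFD.

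Ribosomal proteins outside the naming rule had values close to those inside it. The 8 such genes, with Rack1, a scaffold protein on the small subunit, had medians of -0.11 in Trp and -0.07 in IPA. None passed with edgeR, and 0 and 1 were at an unadjusted p under 0.05, beside 11.3% and 10.4% of all genes. Fau, which is made as a fusion with a ubiquitin-like protein, had 192 ± 16.3 CPM in HFD and 163 ± 14.1 in IPA (SD, n = 3), a log2 difference of -0.24 (edgeR adjusted p = 0.456). Rps27a, a member that is made as a fusion with ubiquitin, had a log2 difference of -0.25 in IPA and -0.21 in Trp, with groups that overlap in both.

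Translation factors, mitochondrial ribosomal proteins and respiratory chain genes did not pass in any comparison. Against HFD their medians lay nearer to 0 than those of the members. For 18 elongation factors and other TOP mRNAs the medians were -0.02 in Trp and 0.01 in IPA against HFD. Eef1a1, the factor that delivers aminoacyl-tRNA, had differences of -0.00 and 0.02, and Eef2, the translocase, -0.13 in both. For 33 initiation factors the medians were 0.00 and 0.02, with Eif5a at -0.14 and -0.16. For 78 mitochondrial ribosomal proteins they were 0.04 and -0.02, and for 80 nuclear genes of the respiratory chain 0.00 and -0.03. At an edgeR unadjusted p under 0.05 there were 0 elongation and 0 initiation genes in both comparisons, 6 and 3 mitochondrial ribosomal proteins, and 7 and 7 respiratory chain genes. Over all genes 11.3% in Trp and 10.4% in IPA were at that level.

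Ribosome assembly genes lay on the other side of 0. The 49 assembly factors had medians of 0.06 in Trp and 0.08 in IPA, with 34 and 33 above 0, beside 49.5% and 48.9% of all genes. None passed, and 2 and 4 were at an edgeR unadjusted p under 0.05, beside 11.3% and 10.4% of all genes. Riok2, a kinase that completes the small subunit, averaged 21.1 ± 0.358 CPM for HFD, 25.5 ± 1.49 with IPA and 27.2 ± 1.87 with Trp (SD, n = 3). All treated libraries were above all HFD libraries, with log2 differences of 0.37 in Trp (edgeR adjusted p = 0.15) and 0.28 in IPA (edgeR adjusted p = 0.349). Sbds, which readies the large subunit for joining, differed by 0.21 in IPA. The 15 genes of RNA polymerase I had medians of 0.02 in both, with 0 at that level.

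Regulators upstream and other linked genes were measured as well. Among 24 genes of the mTOR pathway none passed with edgeR, with medians of 0.00 and 0.03. At an unadjusted p under 0.05 there were 5 and 5, beside 11.3% and 10.4% of all genes. The same shares of all genes stand beside the lists that follow. Ddit4, an mTOR inhibitor induced by stress, averaged 38.3 ± 5.53 CPM for HFD, 47.2 ± 0.0487 with IPA and 49.2 ± 2.18 with Trp, and Sesn1, a leucine-pathway sestrin, 57.3 ± 1.40, 71.3 ± 0.758 and 69.3 ± 7.34 (SD, n = 3). Their edgeR adjusted p in Trp against HFD were 0.216 and 0.265. Mycn, a Myc family factor named here after its values were seen, lay on the other side and averaged 5.05 ± 0.882, 3.36 ± 0.373 and 3.44 ± 0.568 CPM, at log2 differences of -0.55 in Trp and -0.59 in IPA (edgeR adjusted p = 0.296 and 0.348). The 16 host transcripts of small nucleolar RNAs, several of which also begin with a TOP motif, had medians of -0.07 in Trp and -0.17 in IPA, with none that passed with edgeR and 1 and 0 at an unadjusted p under 0.05. Their median deviations by library were 0.11, -0.09 and 0.22 in HFD, then 0.13, -0.09 and -0.23 with IPA and 0.04, -0.11 and 0.04 with Trp. A list of 15 genes held p53, which free Rpl5 and Rpl11 can release from Mdm2, and transcripts that p53 induces. None of the 15 passed with edgeR (2 and 3 at an unadjusted p under 0.05, of which 1 and 2 were lower). Their medians were 0.01 in Trp and -0.06 in IPA. Cdkn1a averaged 21.0 ± 3.62 CPM for HFD, 31.2 ± 5.84 with IPA and 38.8 ± 9.63 with Trp (edgeR adjusted p = 0.144 for Trp). Bbc3, a p53 target that promotes cell death, had a log2 difference of -0.65 in IPA (edgeR adjusted p = 0.469).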

How the data were processed

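Polyadenylated RNA was sequenced, and the labels' protocols describe no step that marks strand. StringTie 2.1.3b and mm10 are named, per the submitters' processing notes. For the aligner, counter, annotation and strand setting the sources used here give no name. The authors deposited 1 table with whole-number counts per gene and, per the file headers, FPKM. Library columns were mapped by the names in the labels, whose codes are not explained there. Coordinates of the table were not used, because their build is not settled.

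The counts were tested with edgeR 4.0.16 (R 4.3.3): filterByExpr (minimum count 10) left 18690 genes, TMM scaling, a robust quasi-likelihood fit over all 9 libraries, 2-sided tests, Benjamini-Hochberg adjustment over all genes. CPM use TMM library sizes, with a prior count of 2 for log2 CPM, and errors are the SD of 3 libraries. Exact permutation of 3 against 3 cannot give a p under 0.1. Alternatives used DESeq2 1.42.0, other scalings and filters, limma 3.58.1 on log2(FPKM + 0.5) where 3 libraries reached an FPKM of 1, a replicate block and libraries left out. Coding lengths and gene types came from GENCODE M21, start sequences from RefSeq (GRCm38.p6). The procedure was tested on simulated data. Figures used Python 3.11.15 and matplotlib 3.10.9.

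Members and lists were chosen with earlier results of these data known. The genes named are those with the 5 smallest p in each direction of a comparison, the 5 highest and 5 lowest by FPKM, paralogue pairs, members with a textbook role and up to 2 genes per list. Rpl38, Rpl39, Rpl24, Rpl28, Rps2, Rps15a and the even or uneven members were chosen after their values were seen. A few genes are counted in the totals but not reported here by name.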

Additional observations from a re-analysis of the deposited data

How the results depend on the processing

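No member passed in any comparison under any of the 22 alternatives, with the exception of DESeq2, which called 1 of 80 in Trp against HFD (Rps29) beside 1.65% of all genes. Left-out libraries moved the median log2 difference from -0.15 to -0.04 for Trp against HFD, from -0.18 to -0.05 for IPA against HFD, and from -0.0286 (without IPA 3) to 0.0904 (without IPA 1) for Trp against IPA. The last turned negative without IPA 3 (-0.0286), without Trp 3 (-0.0066) and without HFD 3 and Trp 3 together (-0.0038, an alternative chosen after seeing the data); the cause was not tested. With the FPKM scale the members' share was 4.70%, and with the genes outside the naming rule it was 2.05% of counts. With the replicate block 0 members passed in each comparison. In Trp against HFD 6 of 80 were then at an edgeR unadjusted p under 0.05 (smallest adjusted p 0.0592), beside 9.37% of all genes. In IPA against HFD there were 0 (8.21% of all genes) and in Trp against IPA 1 (3.56%). The same-numbered libraries had correlations of -0.20 to 0.05, and 1 of 18 correlated best with its own number. These values show no pairing by number but cannot exclude one. Of the 616 values of single genes under alternatives, 615 stayed on their side of the threshold and 1 crossed it.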
